A study of Mus musculus with 4 samples.

Results

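The genes described here encode 40 enzymes of central carbon metabolism, taken from the 24706 genes of the deposited expression tables by gene symbol. They comprise 21 genes of glycolysis and pyruvate handling, 6 of the pentose phosphate pathway and 13 of the TCA cycle, and every symbol was found. RNA-seq was performed on 4 mouse libraries labelled as myeloid cells, 2 labelled wt and 2 labelled cko. In the study's figures the controls are PD-1f/f mice, which carry LoxP sites around an exon of Pdcd1, and the knockout mice carry the same floxed gene together with LysM-Cre, a Cre expressed in myeloid cells from the lysozyme promoter. Both groups thus share the floxed allele, whereas the methods name wild-type mice as controls. The results describe CD11b+ cells isolated by flow cytometry from P3 liver and the methods RNA of P2 fetal livers, and these accounts were not resolved. C57BL/6J mice are named among the animals bought, without a statement that these libraries came from that strain. Nothing states how many animals a library held or that the libraries came from separate animals, so that p-values measure only the spread between these libraries.

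Glycolysis splits glucose into pyruvate in the cytosol, and neutrophils, which hold few mitochondria, are known to depend on it for most of their ATP. The pentose phosphate pathway branches off at glucose 6-phosphate and supplies NADPH, which the phagocyte oxidase uses to make superoxide, and ribose phosphate for nucleotides. The TCA cycle oxidises acetyl groups in mitochondria and feeds electrons to the respiratory chain.

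The libraries held 17691505 to 22212407 counted reads. Pdcd1, the targeted gene, was at 28.5 and 34.7 FPKM in wt replicates 1 and 2 and at 17.1 and 21.4 FPKM in cko replicates 1 and 2 (log2 fold change −0.69, SE 0.19, limma adjusted p = 0.22), and these values cover the whole gene, not the floxed exon alone. Lyz2, the gene at the Cre insertion, was at 31306 and 32147 FPKM in wt and at 10422 and 8127 FPKM in cko. The myeloid genes Itgam, which encodes CD11b, and Ptprc were at 48.5 to 54.3 and 58.1 to 75.1 FPKM. Other cells' markers moved with the groups. The summed level of the 14 erythroid genes was 3845 and 2425 FPKM in wt and 1492 and 1582 FPKM in cko, with 8 lower at an unadjusted p under 0.05, and that of the 14 hepatocyte genes was 88.6 and 147 FPKM in wt and 62.6 and 77.1 FPKM in cko, with the defining gene Alb at 6.13 to 12.4 FPKM and overlapping. The 14 neutrophil genes summed to 161515 and 137302 FPKM in wt and 110903 and 92162 FPKM in cko. The 14 monocyte and macrophage genes summed to 754 and 671 FPKM in wt replicates 1 and 2 and to 656 and 873 FPKM in cko replicates 1 and 2. Their lowest and highest sums were thus both in cko, the highest in replicate 2. At an unadjusted p under 0.05, 3 neutrophil genes were higher and 6 lower, 3 monocyte and macrophage genes were higher, 2 of 8 tested hepatocyte genes (Apoa1 and Ahsg) and 2 of 5 lymphoid genes were lower, 1 of 8 endothelial and stromal genes was higher and 1 lower, and neither of 2 megakaryocyte genes was called, beside 11.4% of all tested genes higher and 4.95% lower. The 10 highest genes took 46.6% and 42.3% of all FPKM in wt and 33.1% and 29.4% in cko. The part of these shifts in the results that follow was not tested, and in bulk RNA fewer cells of a type and less RNA per cell cannot be told apart.

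The promoters of Pfkl, Gapdh, Pgk1 and Mdh1 are shown because these genes had an unadjusted p under 0.05 in limma, 3 higher and 1 lower in cko. Each has a single window, which holds a core of the hypoxia response element, the site bound by HIF-1, a known regulator of glycolytic genes. Since they were picked for a core, its presence in them is no result. Of the other members with such a p, Idh1, Aldoa and Pfkp also hold a core in a window and Gpi1 holds none. Each is a window of 300 bases around a RefSeq gene start on the GRCm38.p6 build, written along the gene's strand, and capitals mark ACGTG or GCGTG on either strand. They lie at chr10:78009758-78010057 (Pfkl, minus strand), chr6:125165724-125166023 (Gapdh, minus strand), chrX:106186850-106187149 (Pgk1, plus strand) and chr11:21571885-21572184 (Mdh1, minus strand).
Pfkl: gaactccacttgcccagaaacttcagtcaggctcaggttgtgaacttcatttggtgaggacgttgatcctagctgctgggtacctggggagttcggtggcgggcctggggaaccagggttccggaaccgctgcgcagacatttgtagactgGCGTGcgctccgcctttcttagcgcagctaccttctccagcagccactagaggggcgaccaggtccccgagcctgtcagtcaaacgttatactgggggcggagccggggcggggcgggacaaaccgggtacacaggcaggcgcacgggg
Gapdh: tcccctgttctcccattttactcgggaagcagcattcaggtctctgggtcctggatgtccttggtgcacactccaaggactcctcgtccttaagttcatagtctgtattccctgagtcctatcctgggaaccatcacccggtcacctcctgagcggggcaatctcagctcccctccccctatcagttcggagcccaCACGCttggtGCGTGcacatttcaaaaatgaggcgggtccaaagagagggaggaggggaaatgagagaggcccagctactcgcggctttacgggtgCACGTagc
Pgk1: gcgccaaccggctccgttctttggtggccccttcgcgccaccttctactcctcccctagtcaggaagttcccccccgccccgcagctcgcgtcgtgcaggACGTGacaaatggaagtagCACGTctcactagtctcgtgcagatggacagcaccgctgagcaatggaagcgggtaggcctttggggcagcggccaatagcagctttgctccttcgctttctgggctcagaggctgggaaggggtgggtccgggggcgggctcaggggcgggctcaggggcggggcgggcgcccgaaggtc
Mdh1: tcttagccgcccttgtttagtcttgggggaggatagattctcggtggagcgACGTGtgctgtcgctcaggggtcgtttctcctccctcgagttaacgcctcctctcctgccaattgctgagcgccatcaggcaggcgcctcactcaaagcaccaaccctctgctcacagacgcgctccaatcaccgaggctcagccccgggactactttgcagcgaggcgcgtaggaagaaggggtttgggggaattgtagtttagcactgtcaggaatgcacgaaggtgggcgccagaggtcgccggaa
Gapdh and Pgk1 carry 3 and 2 marked cores, whereas Pfkl and Mdh1 carry 1 each. RefSeq promoters were found for 39 of the 40 members, all but Idh3a, and several genes have more than 1 start with overlapping windows, giving 59 windows. ACGTG was present in 40.7% of these windows, in 26.1% of the 9433 windows of tested genes and in 19.6% of all 32851 windows. GCGTG was present in 61.0%, 50.1% and 32.4% of the same windows. The E-box CACGTG, which contains ACGTG, was present in 10.2%, 10.3% and 7.15%, and the GC box GGGCGG in 64.4%, 62.1% and 35.7%. A match to these letters is a description and does not show binding.

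Levels are given as FPKM, which divides by gene length, and differences as log2 fold changes of FPKM + 1 with their standard error (SE), positive where cko was higher. For 91.6% of genes that length matched the combined length of all annotated exons. Ranks and shares between genes rest on it. The highest listed genes of the 3 pathways stood at different levels. Transaldolase, Taldo1 (chr7:141392199-141402968), which transfers 3-carbon units in the non-oxidative pentose phosphate branch, had the highest level of the 40 genes, at 842 and 1012 FPKM in wt and 899 and 892 FPKM in cko. Pyruvate kinase, Pkm (chr9:59656368-59679375), which makes pyruvate and ATP, was the highest of glycolysis, at 566 and 608 FPKM in wt and 634 and 606 FPKM in cko. Both genes overlapped between groups. Malate dehydrogenase 1, Mdh1, had the highest mean over the 4 libraries of the TCA list, at 112 and 104 FPKM in wt and 88.6 and 74.3 FPKM in cko, where Mdh2 was above it in both libraries. That list leaves out succinate dehydrogenase, whose subunit gene Sdhd was higher, at 219 and 264 FPKM in wt and 210 and 251 FPKM in cko.

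**Figure D1:**
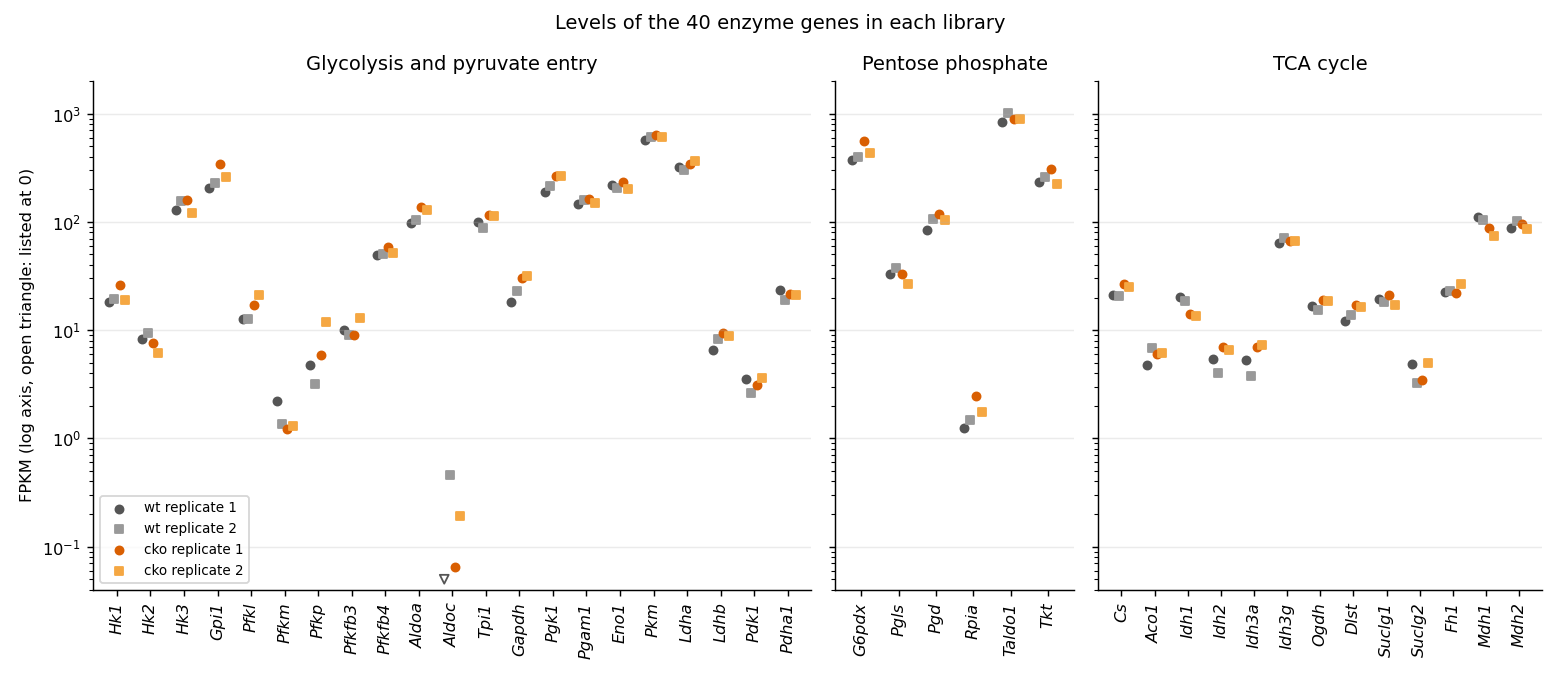
Level of each of the 40 genes in FPKM (log axis) in the 2 wt libraries (grey) and the 2 cko libraries (orange), with circles for replicate 1 and squares for replicate 2. Taldo1 at 842 to 1012 FPKM and Pkm at 566 to 634 FPKM stand highest, and no TCA gene shown exceeds 112 FPKM. The open triangle marks Aldoc, listed at 0 in wt replicate 1.

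Summed over its genes, glycolysis was at 2126 and 2225 FPKM in wt and 2581 and 2395 FPKM in cko, with both cko libraries above both wt libraries. Gapdh entered this sum with its own row alone. Other rows sharing its UniProt match held 85.7% to 87.0% of the recovered reads of Gapdh and those rows together. No pathway sum was taken with those rows added, so that their effect on the glycolysis sums was not tested under either scaling. The pentose phosphate genes summed to 1565 and 1818 FPKM in wt and 1926 and 1685 FPKM in cko, which overlapped. The TCA genes summed to 396 and 404 FPKM in wt and 395 and 370 FPKM in cko, so that both cko sums lay below both wt sums by less than the spread between the cko libraries. This sum includes the cytosolic enzymes Mdh1, Idh1 and Aco1, and Mdh1, its highest gene, and Idh1 were lower in cko. Of the 13 genes, 9 (69.2%) had a log2 fold change above 0, beside 60.4% of all tested genes. No sum was taken of the mitochondrial enzymes alone, so that the lower cko sum does not describe them. The sums depended on scaling. Divided by the median-of-ratios factors, an alternative chosen after the values were seen, the glycolysis sums were 2225 and 2275 in wt and 2470 and 2270 in cko and overlapped, and the TCA sums were 414 and 413 in wt and 378 and 351 in cko, with a gap wider than the cko spread.

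Of the 40 genes, 39 passed the filter of a mean of 1 FPKM and were tested with limma over all 10779 such genes. None passed the threshold of the study's methods (a log2 fold change of at least 1 in size with an adjusted p under 0.05), which 0% of all tested genes passed, nor that of its results (above 1 in size with an unadjusted p under 0.01), which 2.29% passed. The smallest adjusted p among the 39 was 0.24. At an unadjusted p under 0.05, 7 genes (17.9%) were higher in cko beside 11.4% of all tested genes, and 2 (5.13%) were lower beside 4.95%. Under median-of-ratios and under quantile scaling 2 genes, Gapdh and Pfkl, stayed higher and both lower genes stayed lower. With 1 library left out, the genes still higher were Idh3a without wt replicate 1, Gapdh without wt replicate 2, Gapdh, Pfkl and Pfkp without cko replicate 1, and Aldoa and Gpi1 without cko replicate 2, while Idh1 and Mdh1 stayed lower only without cko replicate 1. Both cko libraries lay above both wt libraries for 17 genes (43.6%) beside 33.6% of all tested genes, and below them for 4 (10.3%) beside 18.0%. The log2 fold change was above 0 for 30 genes (76.9%) beside 60.4% of all tested genes. Its median was 0.15, with a range of −0.46 to 0.94, beside 0.09 over all tested genes, and 23 of the 39 genes lay above that median.

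**Figure D2:**
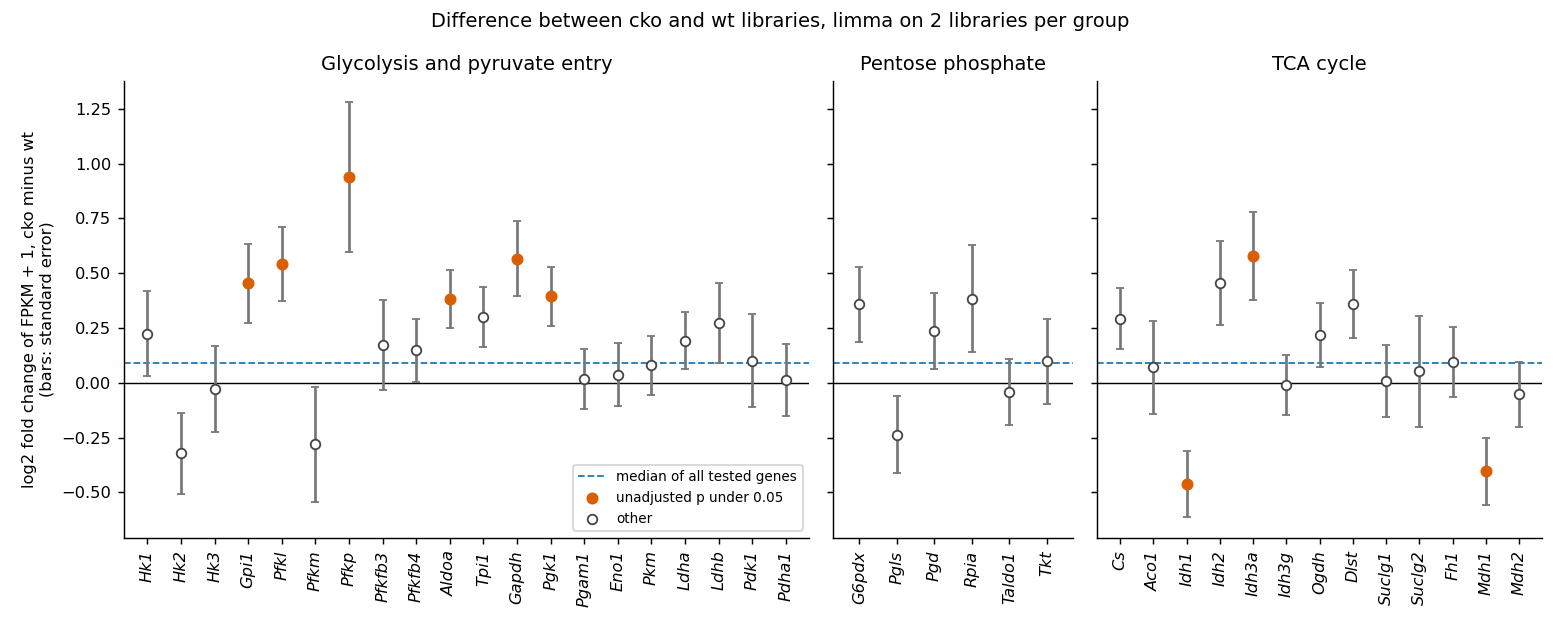
Log2 fold change of FPKM + 1 (cko minus wt) of the 39 tested genes, with bars for the standard error from limma on 2 libraries per group. Filled points have an unadjusted p under 0.05 (7 higher, 2 lower), open points do not, and the dashed line is the median over all tested genes, 0.09. The smallest adjusted p is 0.24.

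The 20 tested glycolysis genes had a median log2 fold change of 0.18. Of these 20 genes, 17 were above 0, beside 60.4% of all tested genes. They held 6 of the 7 genes higher at an unadjusted p under 0.05. These are 6 of 20, beside 11.4% of all tested genes. The 6 pentose phosphate genes had a median of 0.17 and none with such a p. The 13 TCA genes had a median of 0.07, below that of all tested genes, with 1 gene higher (7.69% beside 11.4%) and 2 lower (15.4% beside 4.95%). Under median-of-ratios and quantile scaling the medians were 0.07 and 0.07 for glycolysis, 0.05 and 0.04 for the pentose phosphate genes and −0.03 and −0.05 for the TCA genes, while the median of all genes moved to −0.01 and −0.02. The difference between the pathways was not tested, since genes are not replicates of a condition.

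At the entry to glycolysis, hexokinases trap glucose as glucose 6-phosphate. Hk3, the isoform typical of myeloid cells, was at 128 and 157 FPKM in wt and 160 and 121 FPKM in cko and made up 82.5% to 84.4% of the FPKM of the 3 hexokinase genes in every library. Hk1 was at 18.2 and 19.6 FPKM in wt and 26.1 and 18.9 FPKM in cko. The groups overlapped for both genes. Hk2, the inducible isoform, was at 8.23 and 9.50 FPKM in wt and 7.64 and 6.16 FPKM in cko, with both cko libraries lower (log2 fold change −0.32, SE 0.18, limma adjusted p = 0.42). Glucose phosphate isomerase, Gpi1 (chr7:34201330-34230336), makes fructose 6-phosphate and was at 204 and 228 FPKM in wt and 340 and 258 FPKM in cko. Both cko libraries were above both wt libraries, cko replicate 1 by far the most (log2 fold change 0.45, SE 0.18, limma unadjusted p = 0.048, adjusted p = 0.30), and without cko replicate 1 the log2 fold change was 0.26.

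Phosphofructokinase-1 commits fructose 6-phosphate to glycolysis, and its liver-type subunit Pfkl (chr10:77986947-78010083) was at 12.8 and 12.7 FPKM in wt and 17.1 and 21.1 FPKM in cko. The groups did not overlap, and the mean was 1.5-fold that of wt (log2 fold change 0.54, SE 0.17, limma unadjusted p = 0.020, adjusted p = 0.24). The platelet-type subunit Pfkp (chr13:6579768-6648777) was at 4.72 and 3.21 FPKM in wt and 5.88 and 11.9 FPKM in cko. This was the largest log2 fold change of the 39 genes, 0.94 (SE 0.34, limma unadjusted p = 0.036, adjusted p = 0.28), and cko replicate 2 stood well above cko replicate 1. Without cko replicate 2 the log2 fold change was 0.49, and without cko replicate 1 it was 1.39. The muscle-type subunit Pfkm was at 2.19 and 1.35 FPKM in wt and 1.21 and 1.30 FPKM in cko, which rest on 144, 75, 67 and 68 reads. Pfkl made up 61.6% to 73.6% of the FPKM of the 3 subunit genes. This share rests on exon lengths of 6675 bases for Pfkl and 13401 for Pfkp. Only in cko replicate 2 did Pfkp have more reads than Pfkl, 2814 against 2492.

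Pfkfb3 and Pfkfb4 encode bifunctional enzymes that set the level of fructose 2,6-bisphosphate, the activator of phosphofructokinase-1. Pfkfb3 was at 9.97 and 9.0 FPKM in wt and 9.08 and 12.8 FPKM in cko, and the groups overlapped. Pfkfb4 was at 49.6 and 50.1 FPKM in wt and 59.1 and 51.9 FPKM in cko, and held 80.2% to 86.7% of the FPKM of the pair. Its groups were apart, with a log2 fold change of 0.15 (SE 0.14, limma adjusted p = 0.63).

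Aldolase cleaves fructose 1,6-bisphosphate into the 2 triose phosphates. Aldoa (chr7:126795234-126808905) was at 98.4 and 103 FPKM in wt and 136 and 128 FPKM in cko, so that the gap between groups exceeded the spread within them (log2 fold change 0.38, SE 0.13, limma unadjusted p = 0.030, adjusted p = 0.26). Aldoc, the brain-type aldolase, was listed at 0 in wt replicate 1, which allows up to 0.0414 FPKM at 3 reads, and at 0.456 FPKM in wt replicate 2 and 0.0654 and 0.191 FPKM in cko. Its 0, 28, 4 and 11 reads did not reach the filter. Triose phosphate isomerase, Tpi1, which interconverts the triose phosphates, was at 98.8 and 87.9 FPKM in wt and 116 and 114 FPKM in cko (log2 fold change 0.30, SE 0.14, limma unadjusted p = 0.076, adjusted p = 0.35).

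Glyceraldehyde 3-phosphate dehydrogenase, Gapdh (chr6:125161715-125166467), reduces NAD as it oxidises triose phosphate. It was at 18.2 and 23.0 FPKM in wt and 30.1 and 31.6 FPKM in cko, 1.5-fold by the means, with both cko libraries above both wt libraries (log2 fold change 0.57, SE 0.17, limma unadjusted p = 0.018, adjusted p = 0.24). Phosphoglycerate kinase, Pgk1 (chrX:106187100-106203699), makes the first ATP of the pathway and was at 191 and 213 FPKM in wt and 264 and 265 FPKM in cko. The cko libraries were nearly equal and both above the wt libraries (log2 fold change 0.39, SE 0.14, limma unadjusted p = 0.029, adjusted p = 0.26).

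Phosphoglycerate mutase, Pgam1, was at 147 and 161 FPKM in wt and 163 and 148 FPKM in cko, and enolase, Eno1, at 218 and 205 FPKM in wt and 233 and 201 FPKM in cko. Log2 fold changes were 0.02 (SE 0.14) and 0.04 (SE 0.14) and the groups overlapped for both. Lactate dehydrogenase regenerates NAD from pyruvate, and Ldha, its muscle-type subunit, was at 318 and 303 FPKM in wt and 345 and 365 FPKM in cko, with both cko libraries higher (log2 fold change 0.19, SE 0.13, limma adjusted p = 0.49). Ldhb, the heart-type subunit, was at 6.51 and 8.32 FPKM in wt and 9.45 and 8.78 FPKM in cko, and Ldha held 97.3% to 98.0% of the FPKM of the pair. Pdha1, the catalytic subunit of pyruvate dehydrogenase, lay between 19.1 and 23.3 FPKM, and its inhibitory kinase Pdk1 between 2.62 and 3.58 FPKM, with overlapping groups.

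Gapdh and Eno1 needed their near copies to be read. The tables hold 111 other genes that share the UniProt match of Gapdh, 107 of them annotated as pseudogenes, and reads could be recovered for all but 2. Among the other 4 is Zfp738, a zinc finger gene, so that a shared match does not make every row a copy. The rows with recovered reads held 85.7% to 87.0% of the summed reads, and the 106 pseudogenes among them alone held 85.4% to 86.6%. The largest were Gm7336 at 199 and 246 FPKM in wt and 328 and 313 FPKM in cko and Gm5559 at 144 and 156 FPKM in wt and 226 and 222 FPKM in cko. The level of the gene itself is therefore uncertain, since the counting may have split its reads. With all rows that had recovered reads added, the sum was at 576 and 677 RPM (recovered reads divided by the library total and scaled alike) in wt and 923 and 910 RPM in cko. The log2 ratio of the means was 0.55, beside 0.56 with the pseudogenes only and 0.58 for the gene alone.

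Eno1b, an intronless copy of enolase on chromosome 18, was counted as 23 reads (0.589 FPKM) in wt replicate 1 and 71 reads (2.16 FPKM) in cko replicate 1, but as 3323 reads (100 FPKM) in wt replicate 2 and 3003 reads (96.6 FPKM) in cko replicate 2. It was thus high in the second library of both groups, a difference that runs across the genotypes and whose source was not tested. Eno1 with its copies was at 1171 and 1282 RPM in wt and 1260 and 1252 RPM in cko, so that its overlap between groups did not depend on the copies. Among the other members' copies with recovered reads, the highest share was 8.21%, for Suclg2, and the copy of Ldhb, whose reads could not be recovered, was left out. This search for copies was made after the values had been seen.

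**Figure D3:**
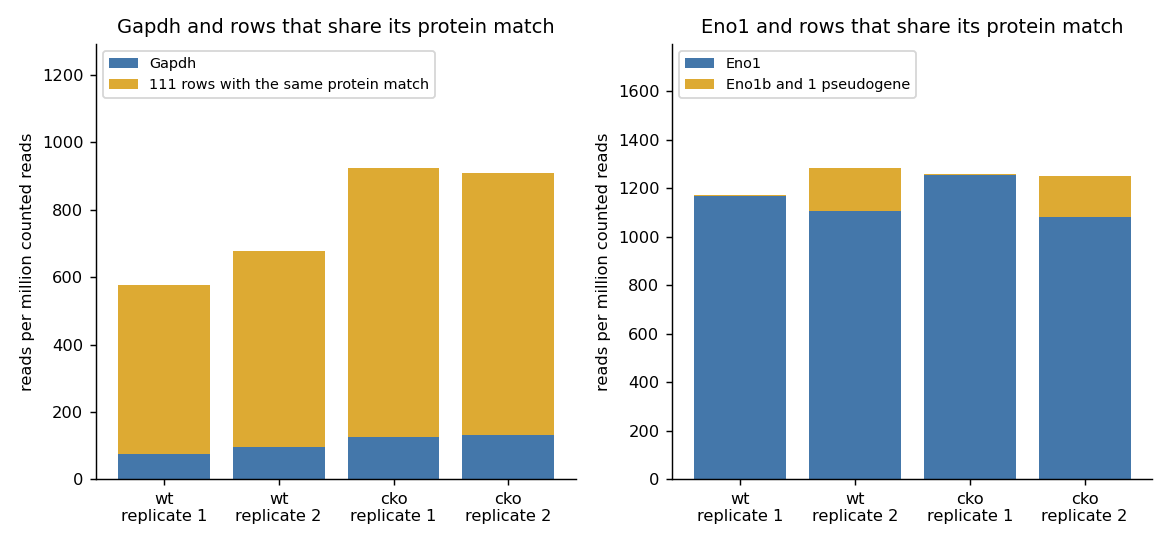
Recovered reads relative to the library total (RPM) of Gapdh (left) and Eno1 (right) in each library, in blue for the gene. Stacked in yellow are the other rows that share the UniProt match of Gapdh, and for Eno1 1 pseudogene and Eno1b, which was added by name and orthology number. For Gapdh most of the reads sit in the other rows, with sums of 576 and 677 in wt and 923 and 910 in cko. For Eno1 the copies hold 0.0884% to 13.8% of the summed reads, and Eno1b shows in replicate 2 of both groups.

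In the pentose phosphate pathway, glucose 6-phosphate dehydrogenase, G6pdx, catalyses the first NADPH-forming step. It was at 374 and 400 FPKM in wt and 564 and 436 FPKM in cko, with both cko libraries above (log2 fold change 0.36, SE 0.17, limma unadjusted p = 0.086, adjusted p = 0.36). Phosphogluconate dehydrogenase, Pgd, which forms the next NADPH, was at 84.0 and 106 FPKM in wt and 119 and 104 FPKM in cko, which overlapped. Pgls, the lactonase between them, was at 32.9 and 37.7 FPKM in wt and 33.2 and 26.6 FPKM in cko, and had a negative log2 fold change of −0.24 (SE 0.17). Of the non-oxidative enzymes, Rpia, the ribose phosphate isomerase, was the lowest at 1.23 and 1.49 FPKM in wt and 2.45 and 1.74 FPKM in cko. Transketolase, Tkt, lay between 224 and 308 FPKM and Taldo1 between 842 and 1012 FPKM, with overlapping groups and log2 fold changes of 0.10 (SE 0.19) and −0.04 (SE 0.15). That of Taldo1 was positive without wt replicate 2.

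The isocitrate dehydrogenase genes differed in direction. Idh1 (chr1:65158616-65186500), the cytosolic NADP-dependent form, was at 20.2 and 18.4 FPKM in wt and 14.1 and 13.4 FPKM in cko. Both cko libraries were below both wt libraries, and the wt mean was 1.41-fold that of cko (log2 fold change −0.46, SE 0.15, limma unadjusted p = 0.023, adjusted p = 0.25). Idh2, the mitochondrial NADP-dependent form, was at 5.38 and 4.02 FPKM in wt and 6.95 and 6.57 FPKM in cko, also apart but in the other direction (log2 fold change 0.46, SE 0.19, limma unadjusted p = 0.060, adjusted p = 0.32). Idh3a (chr9:54586334-54604661), the catalytic subunit of the NAD-dependent enzyme of the cycle itself, was at 5.28 and 3.77 FPKM in wt and 7.04 and 7.31 FPKM in cko. Its groups did not overlap (log2 fold change 0.58, SE 0.20, limma unadjusted p = 0.031, adjusted p = 0.27), and without wt replicate 2 the log2 fold change was 0.38. Idh3g, a regulatory subunit of the same enzyme, was at 63.7 and 71.2 FPKM in wt and 66.9 FPKM in both cko libraries.

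Mdh1 (chr11:21556787-21572367), the cytosolic malate dehydrogenase of the malate-aspartate shuttle, was lower in cko, at the levels given above, with the groups apart (log2 fold change −0.40, SE 0.15, limma unadjusted p = 0.041, adjusted p = 0.29). Its mitochondrial counterpart Mdh2 was at 88.5 and 101 FPKM in wt and 95.8 and 86.8 FPKM in cko, which overlapped. Neither Idh1 nor Mdh1 was lower at such a p once the erythroid and hepatocyte genes were taken out and the libraries were rescaled to 1 total. That setting is mainly a rescaling, since those genes held little of each library's total FPKM. With eBayes without a trend, Mdh1 was not lower at such a p.

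Citrate synthase, Cs, which admits acetyl groups to the cycle, was at 20.9 and 20.7 FPKM in wt and 26.5 and 25 FPKM in cko (log2 fold change 0.29, SE 0.14, limma unadjusted p = 0.087, adjusted p = 0.36). Ogdh and Dlst, subunits of the 2-oxoglutarate dehydrogenase complex, were at 15.4 to 16.6 and 12.1 to 13.9 FPKM in wt and at 18.5 to 19.1 and 16.5 to 17.2 FPKM in cko. All 3 genes were apart in the direction of cko, and none had an unadjusted p under 0.05. Aco1, the cytosolic aconitase that doubles as an iron-regulatory protein, was at 4.74 and 6.89 FPKM in wt and 6.0 and 6.14 FPKM in cko. Suclg1 and Suclg2, subunits of succinyl-CoA ligase, were at 18.3 to 19.4 and 3.26 to 4.87 FPKM in wt and at 17.1 to 20.9 and 3.49 to 5.0 FPKM in cko. Fumarase, Fh1, lay between 22.2 and 26.6 FPKM, and the groups overlapped for these 4 genes.

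Ratios between isoform genes were taken within each library, where scaling between libraries hardly enters. With 2 libraries per group the exact two-sided permutation test cannot give a p below 0.33, and 8 ratios were compared. The ratio of Idh1 to Idh2 showed the widest gap on the scale of FPKM + 1, where the added 1 narrows ratios with low genes such as Pfkm. Its plain ratios were 3.75 and 4.58 in wt and 2.02 and 2.04 in cko. The difference in the log2 ratio of FPKM + 1 was −0.92 (SD 0.16 in wt and 0.0024 in cko, exact permutation p = 0.33, adjusted p = 0.53). Idh1 accordingly held 79.0% and 82.1% of the FPKM of the pair in wt and 66.9% and 67.1% in cko. The log2 ratio of Pfkm to Pfkl differed by −0.82, from −2.11 and −2.55 in wt to −3.04 and −3.26 in cko. Without the added 1, the plain ratios of Pfkm to Pfkl were 0.171 and 0.106 in wt and 0.0706 and 0.0616 in cko. The log2 ratio of Hk2 to Hk1 differed by −0.55, from −1.06 and −0.97 in wt to −1.65 and −1.48 in cko. Hk3 to Hk1 was also apart between groups, with a difference of −0.25 and the same exact permutation p of 0.33. That of Aldoa to Aldoc, 0.48, is set by Aldoa and the pseudocount, since Aldoc lay below the filter, and is no measure of a shift between the isoforms. Ldha to Ldhb (difference −0.08), Pfkfb3 to Pfkfb4 (0.02) and Pfkp to Pfkl (0.40) overlapped between groups.

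**Figure D4:**
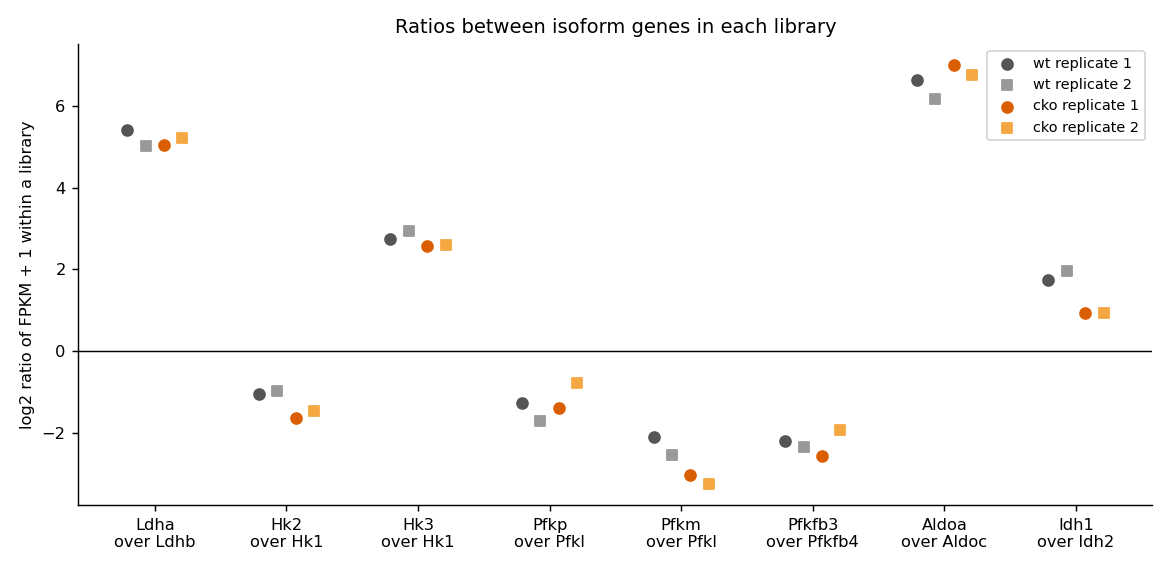
Log2 ratio of FPKM + 1 between isoform genes of 1 enzyme step within each library, with wt in grey, cko in orange, circles for replicate 1 and squares for replicate 2. The ratio of Idh1 to Idh2 lies at 1.73 and 1.95 in wt and 0.92 and 0.92 in cko, while Ldha to Ldhb overlaps between groups.

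Genes of the same pathways outside the 40 were read from lists. Of 14 tested further glycolysis genes, none was higher and 2 were lower at an unadjusted p under 0.05 in limma, beside 11.4% and 4.95% of all tested genes. Bpgm, which makes the red cell effector 2,3-bisphosphoglycerate, was at 44.3 and 25.8 FPKM in wt and 16 and 14.3 FPKM in cko (log2 fold change −1.11, SE 0.27, limma adjusted p = 0.21). This red cell gene was lower beside the lower erythroid sums given above, whose part in it was not tested. Pdhb, the partner subunit of Pdha1, was at 53.3 and 45.0 FPKM in wt and 33.9 and 36.1 FPKM in cko, apart where Pdha1 overlapped. Of 14 further TCA genes, 3 were higher and none lower beside the same 11.4% and 4.95%, including Sdha, the flavoprotein of succinate dehydrogenase, at 67.1 and 66.2 FPKM in wt and 86.1 and 89.1 FPKM in cko, with Glud1 and Got1 (log2 fold changes 0.46 and 0.50). Of 6 further pentose phosphate genes only Rbks had such a p, at −0.39, and of 4 gluconeogenesis genes only Fbp1, at 10.1 and 12.5 FPKM in wt and 6.77 and 6.58 FPKM in cko.

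Among 12 tested transporters of glucose, lactate, pyruvate and TCA intermediates, 2 were higher and 1 lower, beside 11.4% and 4.95% of all tested genes. Slc2a1, the glucose transporter GLUT1, was at 38.7 and 19.7 FPKM in wt and 47.0 and 102 FPKM in cko (log2 fold change 1.30, SE 0.45, limma unadjusted p = 0.031, adjusted p = 0.27). Slc2a6, a lysosomal sugar transporter, was at 7.08 and 5.92 FPKM in wt and 16.5 and 50.5 FPKM in cko (log2 fold change 2.00, SE 0.49, limma adjusted p = 0.21), the largest log2 fold change of these pathway lists. As for Pfkp, cko replicate 2 was far above cko replicate 1 for both. Slc2a3, the transporter GLUT3, was the more abundant at 166 to 179 FPKM, with overlapping groups, and Mpc2, a subunit of the mitochondrial pyruvate carrier, was the lower one at −0.41. Of 12 tested genes of HIF-1 and its targets outside these pathways none had an unadjusted p under 0.05 in limma, beside the same 11.4% and 4.95%. By limma's voom on recovered reads 1 of 16 was higher and 1 lower at such a p, beside 1534 higher and 579 lower of all 14184 genes in that fit. The median log2 fold change of the 12 genes was −0.12, and Hif1a was at 11.3 and 13.7 FPKM in wt and 15.5 and 34.7 FPKM in cko.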

How the data were processed

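RNA-seq was analysed for 4 libraries, grouped as wt and cko by their titles. The authors deposited 1 FPKM value per gene and library (called RPKM in the methods), unscaled between libraries. The submitters' processing notes name TopHat2 2.0.12, Bowtie2 2.2.3, HTSeq 0.6.0 and mm9, with no role given, yet 92.6% of the listed positions matched GENCODE M21 (GRCm38) exactly, and that build was used. Since at least 99.9% of single-exon values were whole multiples of 1 read (within 0.02 reads), totals per library and the reads of 98.2% of genes could be recovered. At 1 kb of exon, 1 read is worth 0.0450 to 0.0565 FPKM. The floor of 3 reads covers counting error only.

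Differences were fitted in limma 3.58.1 (R 4.3.3, trended eBayes, no covariates) to log2(FPKM + 1), leaving out genes whose mean was under 1 FPKM, and p-values were adjusted by Benjamini-Hochberg over all 10779 fitted genes. Fold changes of low genes are understated on this scale. Isoform ratios were compared by exact permutation (SciPy 1.17.1). Tables and figures were made with Python 3.11.15, pandas 2.3.3 and matplotlib 3.10.9. The fit was first tested on simulated data.

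The members and lists were chosen with earlier results of these data known. Values are given per library for members with an unadjusted p under 0.05, isoform steps, the highest member of each pathway and the 3 largest differences in each direction, and others were named by role. The alternatives tried were another pseudocount (0.1), other filters (none, or a mean of 5 FPKM), scaling by median of ratios or by quantiles, taking out the erythroid and hepatocyte genes and rescaling, eBayes without a trend, a replicate block, voom for genes averaging 10 recovered reads or more, and omission of each library. Copies of a member were the genes with its UniProt accession in the tables, and Eno1b by name and orthology number. A gene of the further glycolysis list is not reported here, and its counts leave that gene out.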

Additional observations from a re-analysis of the deposited data

How the results depend on the processing

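No member passed the threshold of the methods under any alternative, and 1 passed that of the results without cko replicate 1, Pfkp (1.39, unadjusted p = 0.0069, limma with the lone library assumed to vary like those of the other group). The number of members higher in cko at an unadjusted p under 0.05 was 7 and became 2 under median-of-ratios scaling, 2 under quantile normalization, 14 without erythroid and hepatocyte genes, 4 with eBayes without a trend and 1 to 3 with 1 library left out. The number lower was 2 and became 0 without erythroid and hepatocyte genes, 1 without a trend and 0 to 2 with 1 library left out. Both cko libraries lay above both wt libraries for 17 members, 28 without erythroid and hepatocyte genes, and below for 4, 8 under median-of-ratios scaling, 2 without erythroid and hepatocyte genes and 4 to 10 with 1 library left out. In the last case 2 libraries stand against 1, where non-overlap is easier to reach. In the main fit 33.6% of all tested genes lay above and 18.0% below. These shares were not taken under the alternatives, so the counts there cannot be set against all genes. Removal of the erythroid and hepatocyte genes also rescales every library to 1 total, and with it the median over all genes moved from 0.09 to 0.27. The erythroid genes summed to 1492 to 3845 FPKM and the hepatocyte genes to 62.6 to 147 FPKM. Total FPKM was 491983 and 457127 in wt and 412778 and 403900 in cko, so that this setting is mainly a rescaling. The cause of the other changes was not tested.

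The median log2 fold change of glycolysis, 0.18, became 0.21 at a minimum mean of 5 FPKM, 0.069 under median-of-ratios scaling, 0.066 under quantile normalization, 0.38 without erythroid and hepatocyte genes and 0.16 to 0.21 with 1 library left out. That of the pentose phosphate pathway, 0.17, became 0.38 without erythroid and hepatocyte genes and 0.040 to 0.33 with 1 library left out. That of the TCA cycle, 0.072, was −0.030 under median-of-ratios scaling, −0.046 under quantile normalization, 0.25 without erythroid and hepatocyte genes and 0.058 to 0.195 with 1 library left out. The log2 difference of the summed FPKM between groups moved under median-of-ratios scaling, chosen after the data were seen, from 0.19 to 0.074 for glycolysis and from −0.065 to −0.18 for the TCA cycle, and was 0.095 and −0.024 for the pentose phosphate pathway. Over all tested genes, 1234 were higher and 534 lower at an unadjusted p under 0.05, against 818 and 855 under median-of-ratios scaling, 780 and 866 under quantile normalization and 2357 and 197 without erythroid and hepatocyte genes. With eBayes without a trend, 1187 were higher and 495 lower.

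Of 336 log2 fold changes of 26 named members under the alternatives, 255 kept their direction and side of the threshold, 52 lost an unadjusted p under 0.05, 5 gained one and 24 changed sign. Under median-of-ratios scaling these were Pkm (−0.040), Aco1 (−0.030), Suclg1 (−0.11) and Suclg2 (−0.044), and under quantile normalization Ldha (−0.024), Aco1 (−0.046), Suclg1 (−0.069) and Suclg2 (−0.057). Without erythroid and hepatocyte genes they were Hk3 (0.18), Taldo1 (0.17), Idh3g (0.20) and Mdh2 (0.16). With 1 library left out, sign changes occurred for Aco1 (−0.16 to 0.30), Hk3 (−0.23 to 0.17), Taldo1 (−0.18 to 0.090), Idh3g (−0.088 to 0.069), Suclg1 (−0.13 to 0.14), Suclg2 (−0.18 to 0.28), Mdh2 (−0.15 to 0.043) and Pfkfb3 (−0.055 to 0.40). For the isoform ratios, those of Ldha to Ldhb and Pfkfb3 to Pfkfb4 changed sign with 1 library left out, and the other 6 kept theirs.

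No source says that libraries with the same replicate number belong together, and the replicate 1 minus 2 differences of wt and cko correlated at −0.16 across genes, which are not independent. With the replicate block, 2 members were higher (Gapdh and Pfkl) and 0 lower, and 908 of all genes were higher and 339 lower. With only 2 pairs, whether each library correlates best with its own number was not assessed.

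Values near 1 FPKM, such as those of Pfkm and Rpia, rest on few reads, and Aldoc on at most 28.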
